A study of Arabidopsis thaliana with 9 samples.

Results

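In Arabidopsis inflorescence meristems, a line labelled pATML1::GFP+CSLD5-csld5, called complemented here, was set against the wild type col-0 over all genes. By its label the complemented line is the csld5 mutant carrying a pATML1::GFP+CSLD5 transgene, so it shares the csld5 mutation with the csld5 plants and col-0 carries neither. The comparison uses 6 of the 9 RNA-seq libraries of the study, 3 complemented and 3 col-0, chosen by the genotype labels alone, and 22671 of the 25760 genes counted passed the filter on low counts. The other 3 libraries are csld5. They entered the fit to estimate the spread and are given as values beside the comparison. The labels do not give the age of the plants, the mutant allele, the number of transgenic lines or whether replicate libraries were made from different plants, so the p-values measure only the spread between libraries, which may be technical.

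CSLD5 belongs to the cellulose synthase-like D family of glycan synthases, whose members make wall polysaccharide at sites of new wall, and CSLD5 is known for its part in building the cell plate that divides a plant cell. ATML1 is a homeodomain transcription factor of the epidermis, and its promoter drives transgenes in the outermost cell layer of the shoot. In the meristem that layer covers the stem cells, which are kept by the WUS and CLV3 loop and by STM. The comparison asks how far meristems with CSLD5 under an epidermal promoter differ from those of the wild type.

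The complemented libraries held 37484382 to 45679471 counted reads and the col-0 libraries 35543318 to 43575089. The correlation of log2 CPM (read counts of a gene scaled by the total of its library and its TMM normalization factor) across genes was 0.9907 to 0.9909 among complemented libraries and 0.9886 to 0.9909 among col-0 libraries, against 0.984 to 0.9882 between the genotypes. All 10 inflorescence meristem markers in the list used as a tissue check had reads in complemented libraries. CLV3, the stem cell peptide, had only 4 reads summed over the complemented libraries and 6 over the col-0 libraries and could not be tested. Of 9 root genes, listed as a tissue that should be absent, 5 were in the count table and had reads in complemented libraries. Their sums were 48.04 to 52.41 CPM in complemented and 49.45 to 51.51 CPM in col-0 libraries, so having reads does not tell the tissue. Every gene of the count table had at least 1 read in col-0 replicate 1, whereas 932 to 1540 genes had none in each of the other libraries. Reads in col-0 are thus no check of tissue, and a rise of a gene silent in that library cannot be seen here.

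Between complemented and col-0 meristems 346 of 22671 genes differed (1.53%) at an adjusted p below 0.05 after Benjamini-Hochberg adjustment of the p-values of edgeR's quasi-likelihood test, and every adjusted p given here is from that fit. Of these, 215 were higher in complemented meristems (0.948%) and 131 were lower (0.578%). The median change of the 346 genes was 1.22 in size on the log2 scale, 140 of the rises and 59 of the falls reached a log2 fold change of 1 in size (0.878% of genes together), and the median log2 fold change over all genes was -0.00. Fitted in the same model, csld5 against the same col-0 libraries gave 9417 differing genes (41.5%). Of the 346 genes, 297 were also called there with the same sign and 14 with the opposite sign. The col-0 libraries are shared by both comparisons, which alone makes their signs alike more often. The 3 complemented libraries lay wholly on one side of the 3 col-0 libraries in all 346 genes and in 19.5% of all genes tested.

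A smooth trend with GC content and gene length explained a share of 0.215, 0.128 and 0.139 of the variance across genes of the log2 deviation of complemented replicates 1 to 3 from the mean of all libraries, against 0.0493, 0.0479 and 0.0254 for col-0 replicates 1 to 3. With a correction for both properties the split was 235 higher and 218 lower, so the share of rises was 51.9% in place of 62.1%. The number of genes called was 154, 139 and 170 without complemented replicate 1, col-0 replicate 1 and col-0 replicate 2. Complemented replicate 1 was the highest of its genotype in 169 of the 215 rises and complemented replicate 3 the lowest in 134. The part of these library differences in the calls was not tested.

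**Figure D1:**
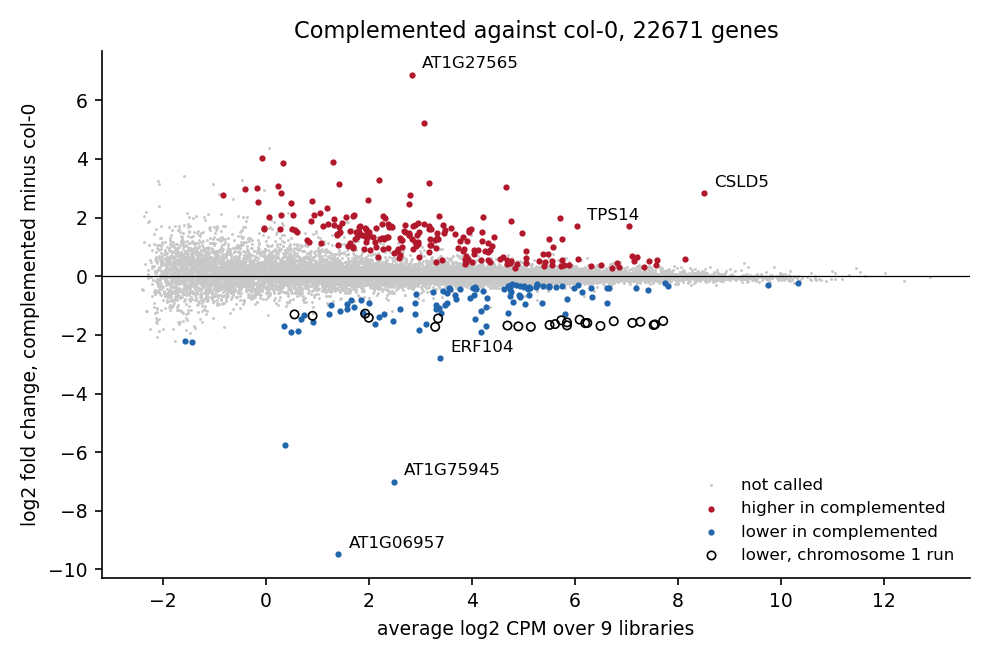
Log2 fold change of complemented over col-0 against the average log2 CPM, 1 point per tested gene, with the 215 rises and 131 falls coloured and the falls of a chromosome 1 segment as open circles. Most genes lie near 0, CSLD5 stands at 2.84 among the highly expressed genes, and the locus AT1G06957 lies lowest at -9.47.

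CSLD5 itself (AT1G02730, chr1:594502-598657, minus strand, RefSeq TAIR10.1) had the smallest adjusted p of all genes. It reached 856.4, 935.5 and 1013 CPM in the complemented libraries, 26.92, 28.09 and 26.76 CPM in the csld5 libraries, and 131, 135.2 and 126.5 CPM in the col-0 libraries. The 3 genotypes do not overlap, and every complemented library lies above every col-0 library. The log2 fold change of complemented over col-0 was 2.84 ± 0.07 (SE, adjusted p 3.6e-11), a 7.14-fold higher level. Per length the same order held, with 399 ± 34.3 TPM (transcript abundance, scaled for gene length and depth) in complemented, 11.3 ± 0.391 TPM in csld5 and 57.1 ± 2.74 TPM in col-0 meristems (SD, n = 3 each). The counts do not tell reads of the transgene from reads of the endogenous gene. Among the 10 tested genes on each side of CSLD5 none differed, with log2 fold changes between -0.78 and 0.46 and a smallest adjusted p of 0.068.

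The other family members did not pass the test, 0 of 5, with a median log2 fold change of 0.12. CSLD2 and CSLD3, which act in root hair growth, had log2 fold changes of -0.05 and 0.03, and by TPM they stood at 12.8 ± 0.0794 and 13.1 ± 0.716 in complemented meristems and at 13.2 ± 0.784 and 12.8 ± 0.616 in col-0 meristems (SD, n = 3 each). CSLD1, which acts in pollen tube growth, had 3.597, 2.473 and 1.953 CPM in complemented libraries, 2.283, 7.774 and 4.181 CPM in csld5 libraries and 0.7636, 1.025 and 1.403 CPM in col-0 libraries. Its complemented libraries lie above the col-0 libraries, but the log2 fold change of 1.34 ± 0.41 missed the threshold (adjusted p 0.149). It passed in 3 of the 22 alternatives tried, the DESeq2 Wald test (adjusted p 0.0228), the fit of only the 6 libraries compared (0.044) and the fit without csld5 replicate 1 (0.0435). CSLD4, also of pollen tubes, had 0.45 ± 0.26 and CSLD6 had 0.12. ATML1, whose promoter drives the transgene, stood at 130.4, 141.5 and 149.8 CPM in complemented libraries, 158.4, 141.4 and 162.3 CPM in csld5 libraries and 140.2, 133.4 and 145.3 CPM in col-0 libraries, and the groups overlap.

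**Figure D2:**
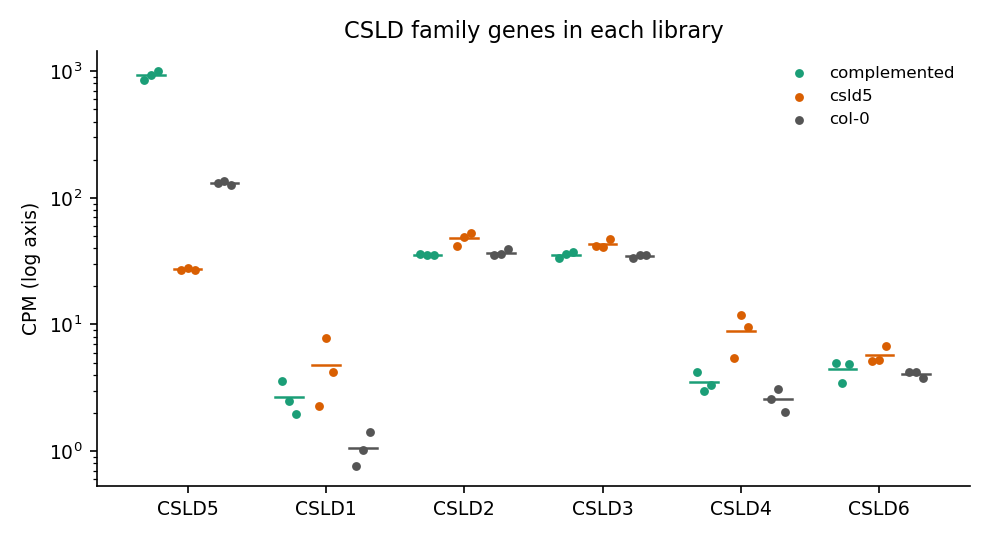
CPM of the 6 CSLD genes tested (log axis), with 1 point per library and a bar at the mean for complemented, csld5 and col-0. CSLD5 is highest in complemented libraries, at 856.4 to 1013 CPM, and lowest in csld5 libraries, while CSLD2 and CSLD3 lie close together in complemented and col-0 libraries.

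Genes that run the meristem showed no call. Of all genes tested 1.53% were called, so lists of this size would hold few or no calls at that share. Of the 22 stem cell regulators tested, 0 rose and 0 fell, with a median log2 fold change of -0.08. The log2 fold change was below 0 for 18 of them and above 0 for 4. For 5 all complemented libraries lay below the col-0 libraries, a placing found for 10.2% of all genes, and for 1 they lay above. WUS, the homeodomain factor that maintains stem cells, had 14.64, 16.3 and 19.38 CPM in complemented libraries, 29.29, 20.48 and 20.91 CPM in csld5 libraries and 14.07, 13.59 and 19.38 CPM in col-0 libraries. The complemented and col-0 values overlap, and the log2 fold change was 0.10 ± 0.16. STM, which keeps cells undifferentiated, had a log2 fold change of -0.11 ± 0.06 (adjusted p 0.513), a value whose complemented libraries, 45.95 to 51.78 CPM, lie below the col-0 libraries, 52.0 to 55.02 CPM. No member was called among the 26 boundary and primordium genes, the 16 inflorescence and floral meristem identity genes, the 14 floral organ identity genes or the 30 cytokinin genes tested. Of the 26 boundary and primordium genes 19 had log2 fold changes below 0 and 7 above. Among 36 auxin genes 1 fell, against 0.578% of all genes that fell. This was GH3.6, which joins auxin to amino acids, by 0.38 on the log2 scale, a call missed in 7 of 22 alternatives. The 28 gibberellin and brassinosteroid genes had no call.

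Cell division and the outer layer gave no calls either, where 1.53% of all genes were called. The 28 mitosis and cytokinesis genes had 0 calls and a median log2 fold change of -0.14, and for 13 of them all complemented libraries lay below the col-0 libraries, a placing found for 10.2% of all genes. KN, the syntaxin of the cell plate, had 79.01, 72.58 and 85.33 CPM in complemented libraries and 90.57, 86.74 and 82.89 CPM in col-0 libraries, which overlap. The 23 S phase genes had 0 calls and a median of -0.08. Among 24 epidermal regulators and 29 cutin and wax genes none was called, with medians of -0.05 and 0.05. PDF1, a protein of the outer layer, had 545.4 to 596.2 CPM in complemented libraries, below the 643.4 to 656.5 CPM of col-0 libraries, at an adjusted p of 0.127 by edgeR and of 0.0165 by the DESeq2 Wald test.

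Lists of wall genes other than the pectin families given further on had few calls. Of all genes 0.948% rose and 0.578% fell. Among 18 expansins, which loosen walls, 2 rose and 1 fell, with a list median of 0.10. EXPA11 had 52.77, 31.32 and 25.4 CPM in complemented libraries, 83.49, 92.88 and 76.12 CPM in csld5 libraries and 14.79, 15.02 and 15.51 CPM in col-0 libraries. Its complemented libraries lie between those of the other genotypes, and its log2 fold change over col-0 was 1.27 ± 0.20 (adjusted p 0.00478). EXPA1 rose by 0.45 and EXLA2 fell by 0.41 on the log2 scale, and each missed the threshold in 5 of the 22 alternatives tried, 1 of which asks for a change of at least 1. Without complemented replicate 1, complemented replicate 2, col-0 replicate 1 or col-0 replicate 2, in turn, 1 expansin rose and 0 fell. Of 22 xyloglucan enzymes of the XTH family, XTH30 rose by 0.64 and TCH4, described below with the stress genes, fell. XTH30 missed the threshold in 10 of 22 alternatives, among them each fit without 1 of the 6 libraries compared. PMEI1, an inhibitor of pectin methylesterases, was the 1 call among 20 pectin genes, at 1.68 ± 0.29 (adjusted p 0.00884). XXT1, which adds xylose to xyloglucan, fell by 0.33 and missed the threshold in 9 of 22 alternatives. The 11 genes of primary wall cellulose synthesis, the 14 secondary wall genes and the 18 wall integrity receptors had 0 calls, with medians of -0.01, -0.02 and -0.04. CESA1, a catalytic subunit of the primary wall synthase, had 231.1, 251.8 and 253.0 CPM in complemented libraries and 238.3, 246.2 and 274.8 CPM in col-0 libraries, which overlap.

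GPAT5, an acyltransferase of suberin synthesis, was the 1 call among 8 suberin genes, against 1.53% of all genes called. It had 22.57, 13.12 and 6.888 CPM in complemented libraries, 67.79, 59.37 and 62.34 CPM in csld5 libraries and 3.008, 4.077 and 4.376 CPM in col-0 libraries. The 3 genotypes do not overlap, the complemented libraries spread more widely than the others, and the log2 fold change was 1.90 ± 0.32 (adjusted p 0.00855).

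A group of falls was found among early wound and stress regulators, transcription factors and other genes known to be induced quickly by wounding and other stress. Of 19 tested members 6 fell and 0 rose, against 0.578% of all genes that fell. This list, like the other gene lists, was chosen with earlier results of these data known, so the contrast is a description only. The median log2 fold change of the list was -1.02, against -0.00 over all genes, and stayed between -1.32 and -0.531 over the alternatives, in which 5 to 10 members fell. The count of 10 was reached without complemented replicate 3, and without col-0 replicate 3 there was 1 rise beside 6 falls. The summed level of the list was 73.4 to 128.5 CPM in complemented libraries, 90.06 to 94.88 CPM in csld5 libraries and 178.3 to 185.1 CPM in col-0 libraries. In bulk tissue, fewer cells of a type and less RNA per cell cannot be told apart.

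ERF104, an ethylene response factor, had the largest fall of the list. It stood at 2.81, 2.057 and 4.399 CPM in complemented libraries, 4.51, 6.365 and 7.283 CPM in csld5 libraries and 27.58, 22.62 and 15.12 CPM in col-0 libraries, a log2 fold change of -2.81 ± 0.26 (adjusted p 4.4e-05). Even its lowest col-0 library lies well above the highest complemented library. CAF1A, a deadenylase subunit that shortens poly(A) tails, had 4.159, 3.202 and 4.699 CPM in complemented libraries and 16.24, 14.68 and 11.72 CPM in col-0 libraries, a log2 fold change of -1.82 ± 0.16 (adjusted p 1.9e-05). ERF5, a close relative of ERF104, had 3.013, 2.291 and 2.146 CPM in complemented libraries against 9.487, 7.487 and 6.311 CPM in col-0 libraries, and fell by 1.64. ZAT10, a zinc finger repressor of stress responses, had 2.788, 1.9 and 3.433 CPM in complemented libraries against 6.525, 8.066 and 6.872 CPM in col-0 libraries. The groups do not overlap in any of these genes, and ZAT10 fell by 1.39 (adjusted p 0.0027). DREB26, another factor of the AP2/ERF family, fell by 1.27. ERF6 fell by 1.09 (adjusted p 0.0155) and missed the threshold in 4 of 22 alternatives.

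Other genes of this kind, picked here after their values were seen, fell with them. TCH4, a xyloglucan enzyme induced by touch and the 1 call among 12 touch and calcium genes, had 9.173, 7.784 and 17.7 CPM in complemented libraries, 7.35, 9.101 and 8.12 CPM in csld5 libraries and 42.85, 37.72 and 33.07 CPM in col-0 libraries. Its log2 fold change was -1.71 ± 0.22 (adjusted p 0.00119), and complemented replicate 3 was the highest of its genotype. The 1 call among 12 touch and calcium genes stands against 1.53% of all genes called. AT4G27280, an EF-hand calcium-binding protein, had 8.903, 7.498 and 10.69 CPM in complemented libraries against 41.84, 33.82 and 25.44 CPM in col-0 libraries, and fell by 1.90. MYB77, a transcription factor of auxin responses, had 14.88, 15.46 and 19.55 CPM in complemented libraries against 42, 41.31 and 35.76 CPM in col-0 libraries, and fell by 1.25. In both genes the groups stand far apart. ACS6, which makes the precursor of ethylene, fell by 1.04 and DIC2, a mitochondrial dicarboxylate carrier, by 1.63. A search of product names for ethylene response or ethylene responsive found 18 tested genes, which need not be the whole family. Of these 6 fell (33.3%, against 0.578% of all genes) and 0 rose, with a median of -0.15. Beside ERF104, ERF5 and ERF6 the falls were ERF-1 at -0.98, ERF13 at -1.27 and ERF2 at -0.57. Those 3 calls were missed in 1, 4 and 6 of 22 alternatives.

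**Figure D3:**
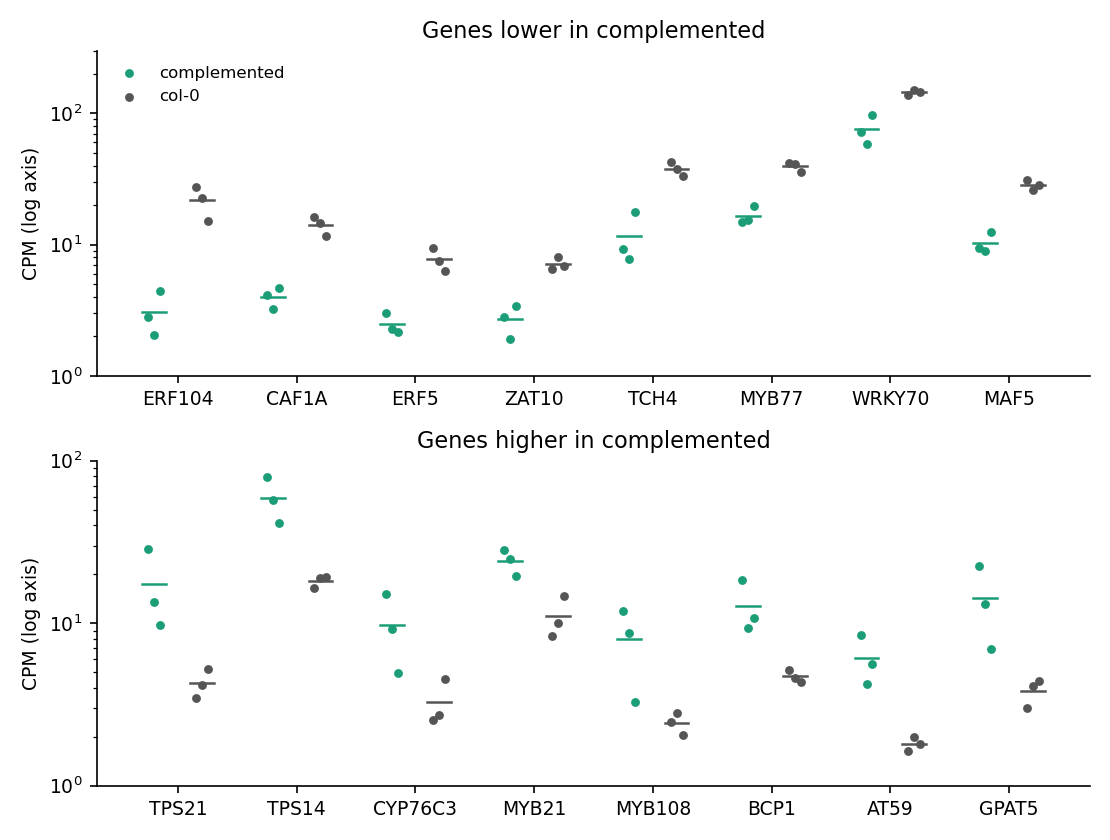
CPM (log axis) of called genes that were lower (upper panel) or higher (lower panel) in complemented meristems, with 1 point per complemented or col-0 library and a bar at the mean. The groups do not overlap in any of these genes, and the complemented points of the genes in the lower panel spread more widely than the col-0 points for most of them, as in GPAT5 at 6.888 to 22.57 CPM.

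The letters before the start sites of ZAT10 and DIC2, and of the flowering repressors MAF4 and MAF5 described next, are shown because motifs bound by stress factors lie in them. The windows are the 250 bases before the annotated start, from RefSeq TAIR10.1, searched on both strands for GCCGCC, the box bound by ethylene response factors, for CGCGTT, the core of a rapid stress response element, and for TTGACC and TTGACT, the W boxes bound by WRKY factors. GCCGCC was found in 384 of 21417 windows (1.79%), in 5 of the 101 windows of genes that fell outside the chromosome 1 segment described below (4.95%) and in 3 of the 19 early stress genes tested (15.8%), of which ZAT10 was the 1 that fell. CGCGTT was found in 585 windows (2.73%), in 5 of the same 101 (4.95%), with the neighbours MAF4 and MAF5 among them, and in 1 of the 19 early stress genes (5.26%). That early stress gene was not called. TTGACC was in 11.9% of all windows, 14.9% of those 101 and 21.1% of the early stress genes. TTGACT was in 18.5% of all windows, 21.8% of those 101 and 10.5% of the early stress genes. Each motif was counted on its own, whether or not it overlapped another, and a match is a description of the letters only. Capitals mark the match to GCCGCC or CGCGTT, printed in the direction of the gene, so that GGCGGC is GCCGCC and AACGCG is CGCGTT on the other strand. The windows are chr1:9649324-9649573 (minus strand) for ZAT10, chr4:12686209-12686458 (plus strand) for DIC2, chr5:25991943-25992192 (plus strand) for MAF4 and chr5:25997254-25997503 (plus strand) for MAF5.
ZAT10: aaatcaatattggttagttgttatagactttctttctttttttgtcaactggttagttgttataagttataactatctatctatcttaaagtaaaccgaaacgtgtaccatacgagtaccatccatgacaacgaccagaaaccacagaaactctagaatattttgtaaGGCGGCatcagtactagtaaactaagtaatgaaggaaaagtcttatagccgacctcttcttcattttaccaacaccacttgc
DIC2: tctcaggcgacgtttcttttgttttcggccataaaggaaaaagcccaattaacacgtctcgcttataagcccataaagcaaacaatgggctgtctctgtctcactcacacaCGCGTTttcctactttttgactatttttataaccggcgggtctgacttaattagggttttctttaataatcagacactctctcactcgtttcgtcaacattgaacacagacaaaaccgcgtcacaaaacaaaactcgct
MAF4: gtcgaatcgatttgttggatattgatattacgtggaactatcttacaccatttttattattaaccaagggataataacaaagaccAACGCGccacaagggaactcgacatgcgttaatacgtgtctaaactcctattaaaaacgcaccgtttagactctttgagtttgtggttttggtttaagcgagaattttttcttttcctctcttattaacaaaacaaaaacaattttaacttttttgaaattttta
MAF5: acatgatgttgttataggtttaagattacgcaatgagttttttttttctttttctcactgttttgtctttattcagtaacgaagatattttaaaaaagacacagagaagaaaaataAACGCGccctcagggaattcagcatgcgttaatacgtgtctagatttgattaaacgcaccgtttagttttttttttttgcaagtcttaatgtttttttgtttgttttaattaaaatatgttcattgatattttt

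MAF4 and MAF5 are MADS-box repressors of flowering of the FLC family that lie next to each other on chromosome 5. Both were picked after their values were seen. MAF5 had 9.443, 8.982 and 12.44 CPM in complemented libraries, 12.17, 11.24 and 9.091 CPM in csld5 libraries and 31.03, 26.09 and 28.58 CPM in col-0 libraries. Its log2 fold change was -1.47 ± 0.13 (adjusted p 2.2e-05), and all complemented libraries lie far below all col-0 libraries. MAF4 had 3.552, 2.89 and 3.347 CPM in complemented libraries against 6.595, 6.15 and 5.891 CPM in col-0 libraries, and fell by 0.93 (adjusted p 0.00623), a call missed in 4 of 22 alternatives. FLC itself had a log2 fold change of 0.46 ± 0.37 and was not called. Its level was low, 0.7195, 0.755 and 0.6652 CPM in complemented libraries and 0.3934, 0.6239 and 0.533 CPM in col-0 libraries.

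Salicylic acid defence genes gave 4 falls and 0 rises among 22 tested, with a median of -0.18, against 0.578% of all genes that fell. The number of falls was 2 without complemented replicate 1, col-0 replicate 1 or col-0 replicate 2, in turn, and 6 without complemented replicate 3. WRKY70, a transcription factor of this pathway, had 72.28, 58.52 and 96.81 CPM in complemented libraries, 69.41, 61.92 and 90.42 CPM in csld5 libraries and 138.5, 150.3 and 145.0 CPM in col-0 libraries. Complemented replicate 3 was the highest of its genotype and still below every col-0 library, and the log2 fold change was -0.93 ± 0.15 (adjusted p 0.00744). WRKY54, its closest relative, fell by 0.79. NIMIN1, which binds the regulator NPR1, fell by 0.68 but missed the threshold in 8 of 22 alternatives. PR2, a glucanase used as a marker of the pathway, had 1.574, 1.953 and 1.223 CPM in complemented libraries, 14.37, 13.27 and 12.44 CPM in csld5 libraries and 3.702, 4.122 and 2.468 CPM in col-0 libraries. It was lowest in complemented meristems and highest in csld5 meristems, and fell by 1.13 against col-0, a call missed in 5 of 22 alternatives.

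**Figure D4:**
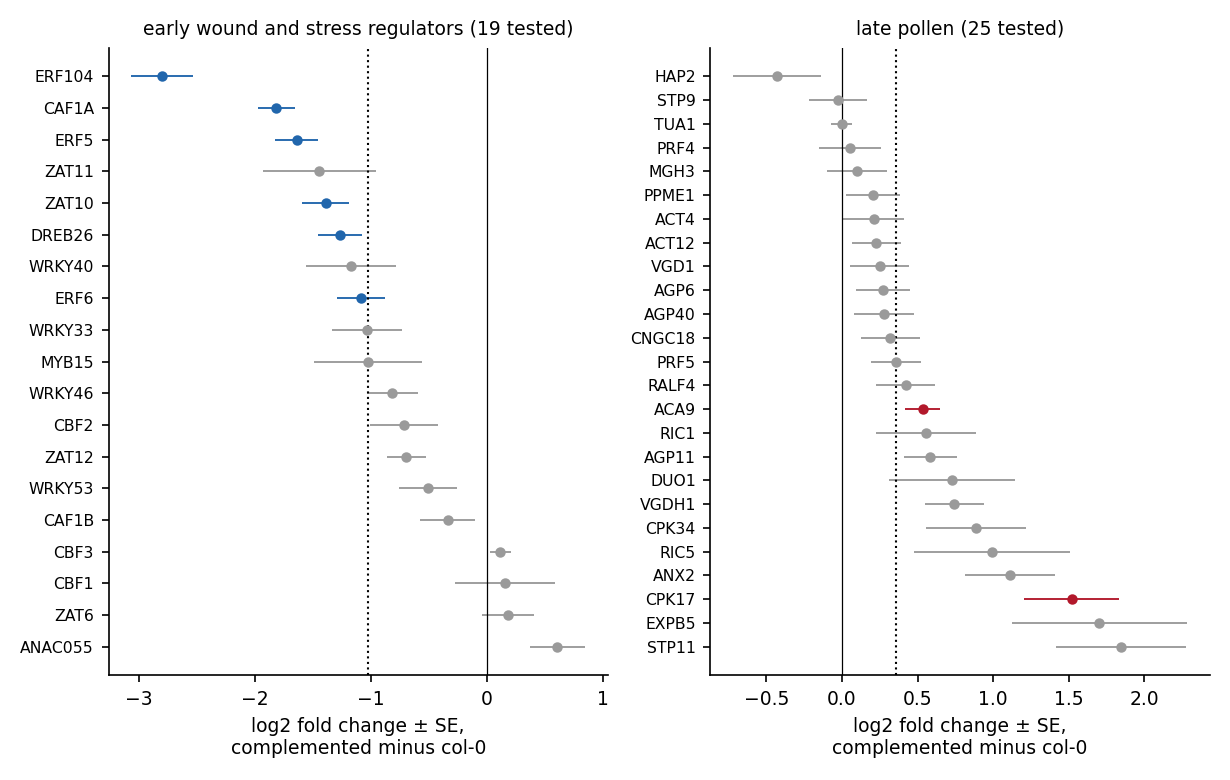
Log2 fold change of complemented over col-0 for the 19 early wound and stress regulators and the 25 late pollen genes tested, 1 row per gene, with bars for the SE, a dotted line at the list median and called genes in colour. The stress list has 6 falls and a median of -1.02, and the pollen list has 2 rises and a median of 0.36.

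Among the rises were genes of the terpene synthase family, whose products include floral volatiles. A search of product names for terpene synthases or terpenoid cyclases found 19 tested genes, which need not be the whole family or only terpene synthases. Of these 7 rose and 0 fell, with a median of 0.40, against 0.948% of all genes that rose. Over 22 alternatives the call was missed in 0 for TPS14, 1 for TPS21, 4 for AT3G25810, 7 each for TPS03 and AT5G44630, 8 for TPS10 and 9 for TPS04. This family was grouped after its values were seen. TPS14, a linalool synthase, had 79.21, 57.14 and 41.56 CPM in complemented libraries, 113.1, 128.1 and 117.4 CPM in csld5 libraries and 16.52, 18.89 and 19.35 CPM in col-0 libraries, a log2 fold change of 1.70 ± 0.17 (adjusted p 9.3e-05). TPS21, which makes caryophyllene, had 28.58, 13.54 and 9.763 CPM in complemented libraries, 33.07, 38.95 and 30.78 CPM in csld5 libraries and 3.448, 4.167 and 5.245 CPM in col-0 libraries, a log2 fold change of 2.02 ± 0.32 (adjusted p 0.00492). In both genes the complemented libraries lie between the other genotypes, with replicate 1 highest. CYP76C3, a cytochrome P450 that oxidises linalool, was picked after its values were seen, rose by 1.60 and missed the threshold in 7 of 22 alternatives. MYB21, a transcription factor of stamen maturation picked after its values were seen, had 27.99, 24.65 and 19.42 CPM in complemented libraries, 28.43, 28.03 and 17.1 CPM in csld5 libraries and 8.33, 10.05 and 14.59 CPM in col-0 libraries, a log2 fold change of 1.14 ± 0.21 (adjusted p 0.0155). Its relatives MYB24 and MYB108, picked in the same way, rose by 1.18 and 1.70. Over 22 alternatives the call was missed in 4 for MYB21 and in 8 for each of the others.

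Other large rises were found in genes of low level. AT3G55870, annotated in the ADC synthase superfamily, had 3.328, 1.354 and 0.472 CPM in complemented libraries, 7.628, 5.309 and 4.046 CPM in csld5 libraries and 0.04628, 0.2228 and 0.0561 CPM in col-0 libraries. AAE11, annotated as an acyl-activating enzyme, had 4.991, 1.354 and 1.33 CPM in complemented libraries, 7.684, 12.43 and 13.33 CPM in csld5 libraries and 0.1851, 0.2228 and 0.3927 CPM in col-0 libraries. In both genes complemented replicate 1 was the highest of its genotype and no complemented library reached a csld5 library, and the log2 fold changes over col-0 were 3.90 ± 0.74 and 3.29 ± 0.58 (adjusted p 0.0173 and 0.0105). Over the fits without 1 library these were 2.957 to 4.996 for AT3G55870 and 2.35 to 3.64 for AAE11, with the lowest value of each reached without complemented replicate 1 and the highest without col-0 replicate 2 for AT3G55870 and without col-0 replicate 3 for AAE11. The call was missed in 6 of 22 alternatives for AT3G55870 and in 4 for AAE11. The terpene synthase AT3G25810 rose by 2.61, a call missed in 4 of 22 alternatives, the dioxygenase AT2G38240 by 2.46 and scpl37, a serine carboxypeptidase-like gene, by 2.33. Genes that feed sugar to tissues were among the rises too, picked after their values were seen. CWINV2, a cell wall invertase, had 8.881, 5.805 and 5.128 CPM in complemented libraries, 9.215, 19.56 and 15.89 CPM in csld5 libraries and 1.666, 1.961 and 2.02 CPM in col-0 libraries, and rose by 1.81, and SWEET13, a sugar transporter, rose by 1.47. Their calls were missed in 2 and 7 of 22 alternatives.

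Pollen and pollen tube genes gave a few calls. Of 25 late pollen genes tested 2 rose and 0 fell, against 0.948% of all genes that rose. CPK17, a calcium-dependent kinase of pollen tubes, rose by 1.52 and ACA9, a calcium pump of pollen, by 0.53. CPK17 missed the threshold in 7 of 22 alternatives and ACA9 in 10, the replicate block among them. The number of rises was 0 without complemented replicate 1 or col-0 replicate 1, 1 without col-0 replicate 2 or col-0 replicate 3, and 5 without csld5 replicate 1. The list median was 0.36, and for 8 of the 25 all complemented libraries lay above the col-0 libraries, a placing found for 9.37% of all genes. The summed level of the list was 510.2 to 619.5 CPM in complemented libraries, 594.8 to 997.3 CPM in csld5 libraries and 370.7 to 555.0 CPM in col-0 libraries, so complemented and col-0 libraries overlap. All 28 of its genes in the table had reads in complemented libraries, while reads in col-0 are shared by every gene of the table. The 18 tapetum genes, of the tissue that feeds pollen, had 0 calls and a median of 0.28, with sums of 2134 to 2397 CPM in complemented and 1954 to 2126 CPM in col-0 libraries. The part of stamen and pollen content in these rises was not tested.

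Among small secreted proteins of the self-incompatibility S1 family 6 of 15 rose (40%), with a median of 0.91, against 0.948% of all genes that rose. This family and the others named in this paragraph were grouped after their values were seen, so these shares are a description only. They were found by a search of product names, and need not be whole families or hold only genes of the named kind. The S1 gene AT1G28306 missed the threshold in 7 of 22 alternatives and AT1G51250 in 1. AT3G26860 had 24.73, 13.09 and 12.9 CPM in complemented libraries, 9.466, 13.57 and 8.389 CPM in csld5 libraries and 5.299, 4.791 and 4.909 CPM in col-0 libraries, a log2 fold change of 1.76 ± 0.24 (adjusted p 0.00189). Of 17 RALF peptides, which act on receptor kinases at the cell surface, 4 rose (23.5%). Their calls were missed in 0 of 22 alternatives for RALFL25, 1 for RALFL15, 4 for RALFL26 and 5 for AT2G32885. RALFL15 had 28.85, 16.82 and 12.51 CPM in complemented libraries, 8.324, 8.478 and 4.963 CPM in csld5 libraries and 6.479, 6.194 and 7.041 CPM in col-0 libraries, a log2 fold change of 1.56 ± 0.26 (adjusted p 0.00732). Here the complemented libraries stand above both other genotypes. Of 82 pectin methylesterases and inhibitors 12 rose (14.6%) and 0 fell, and of 6 pectate lyases 3 rose, all again against 0.948% of all genes. Over 22 alternatives the pectin methylesterase and inhibitor calls were missed in 0 for AT1G23350 up to 12 for AT5G50030, with 10 for AT4G15980 and 7 for AT5G27870. The pectate lyase calls were missed in 1 each for AT59 and AT2G02720 and in 4 for AT5G15110. AT5G50040, of the pectin methylesterase inhibitor superfamily, had 8.768, 3.098 and 2.704 CPM in complemented libraries against 0.6479, 0.7576 and 0.7013 CPM in col-0 libraries, with replicate 1 far above replicates 2 and 3, and rose by 2.79. AT59, a pectate lyase of pollen, had 8.409, 4.217 and 5.6 CPM in complemented libraries, 10.97, 17.06 and 15.54 CPM in csld5 libraries and 1.643, 2.005 and 1.795 CPM in col-0 libraries, and rose by 1.75.

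A segment of chromosome 1 held a run of falls. From ILA to 4CL3, chr1:24064822-24171635 (106.8 kb, RefSeq TAIR10.1), 24 of 26 tested genes fell and 0 rose, and the median log2 fold change was -1.59, a level 3.02-fold higher in col-0. The other 2 were AT1G64820 at -0.66 (adjusted p 0.731) and CYP89A7 at -1.69 (adjusted p 0.389). The 10 tested genes before the segment and the 10 after it had 0 calls, with medians of 0.01 and 0.15. The segment was chosen after its values were seen, and elsewhere no more than 2 neighbouring tested genes in a row were called in the same direction.

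Summed over the segment the level was 953.1, 1011 and 995.3 CPM in complemented libraries, 1039, 1026 and 1090 CPM in csld5 libraries and 2959, 2934 and 3070 CPM in col-0 libraries. The complemented libraries thus held 33.0% and the csld5 libraries 35.2% of the mean col-0 level, and neither overlaps col-0. SIGA, a sigma factor of the plastid RNA polymerase, had 52.52, 53.55 and 51.95 CPM in complemented libraries, 48.83, 46.42 and 46.59 CPM in csld5 libraries and 165.8, 167.8 and 178.2 CPM in col-0 libraries, a log2 fold change of -1.70 ± 0.05 (adjusted p 3.8e-10). G-TMT, a methyltransferase of vitamin E synthesis, had 92.68, 95.78 and 87.69 CPM in complemented libraries, 111.5, 100.7 and 91.61 CPM in csld5 libraries and 269.3, 254.4 and 286.1 CPM in col-0 libraries, and fell by 1.55. Both genes vary little within a genotype. APO1, which acts in the assembly of photosystem I, fell by 1.66, AT1G64880, annotated as a ribosomal protein S5 family member, by 1.66, Hrd1B, a RING-type protein, by 1.53 and 4CL3, a 4-coumarate CoA ligase, by 1.59. Some neighbours overlap on opposite strands, such as G-TMT and HEB1 over 120 bases, and the strand setting of the counting is not given in the sources used here. With the segment included, 1.95% of the tested genes of chromosome 1 were called, against 1.15% to 1.76% on the other nuclear chromosomes.

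**Figure D5:**
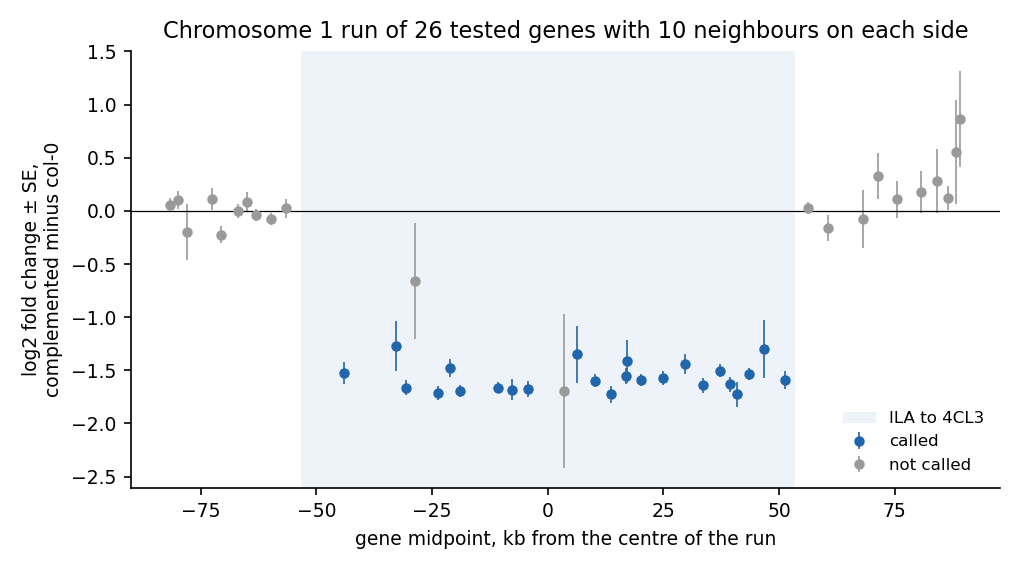
Log2 fold change of complemented over col-0, with bars for the SE, against the distance of each gene's midpoint from the centre of the segment in kb, for the 26 tested genes of the segment (shaded) and 10 tested genes on each side. Inside the segment the median is -1.59, and the medians before and after it are 0.01 and 0.15.

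Several single loci were present in one genotype and nearly absent from the other. AT1G06957, a locus for an RNA with no coding product (chr1:13477922-13478204), had 0, 0 and 1 reads in complemented libraries, 0, 0 and 0 reads in csld5 libraries and 335, 380 and 241 reads in col-0 libraries. The ratio of col-0 to complemented level was 1001, with a 95% counting interval of 179 to 39570. AT1G75945, an uncharacterized protein gene (chr1:28515245-28515916, minus strand), had 10, 4 and 2 reads in complemented libraries, 0 in each csld5 library and 655, 808 and 558 reads in col-0 libraries. Its ratio of col-0 to complemented level was 132, with an interval of 81.2 to 232. The genes next to it were not called, ATA27 at 0.23 and SKP1 at 0.01. AT3G05955, with an average log2 CPM under 1 and chosen after its values were seen, had 2, 4 and 2 reads in complemented libraries, 2, 2 and 2 reads in csld5 libraries and 152, 187 and 103 reads in col-0 libraries. These intervals cover counting error only.

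In the other direction, AT1G27565 (chr1:9574550-9575189, plus strand) had 670, 526 and 569 reads in complemented libraries, 314, 279 and 219 reads in csld5 libraries and 4, 5 and 5 reads in col-0 libraries. The ratio of complemented to col-0 level was 120, with an interval of 71.6 to 221. Its value is uncertain because a copy 98.4% identical over its 640 bases lies at chr1:19706070-19706708 within AT1G52905, which had a log2 fold change of 0.07 and was not called. AT3G05945 had 684, 611 and 705 reads in complemented libraries, 390, 314 and 296 reads in csld5 libraries and 10, 22 and 19 reads in col-0 libraries, a ratio of 37.5 with an interval of 28.4 to 50.5. AT2G00840, likewise of low level and chosen later, had 61, 65 and 86 reads in complemented libraries, 25, 45 and 35 reads in csld5 libraries and 8, 2 and 2 reads in col-0 libraries, a ratio of 16.9 with an interval of 9.46 to 33.2. AT5G35935 had 31.5, 34.34 and 32.14 CPM in complemented libraries, 40.73, 37.03 and 41.49 CPM in csld5 libraries and 3.656, 4.412 and 3.871 CPM in col-0 libraries, a log2 fold change of 3.03 ± 0.09 (adjusted p 1.9e-10). AT3G29633 and AT2G08735 rose by 3.18 and 3.15. In all of these loci the complemented and csld5 libraries stand on the same side of the col-0 libraries, with which both are compared.

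The windows before AT1G75945, chr1:28515917-28516166 (minus strand), and AT1G27565, chr1:9574300-9574549 (plus strand), are printed as the reference letters at the locus that was nearly absent from complemented libraries and the locus that was nearly absent from col-0 libraries. They come from the col-0 reference genome, and neither holds GCCGCC or CGCGTT, so nothing is in capitals.
AT1G75945: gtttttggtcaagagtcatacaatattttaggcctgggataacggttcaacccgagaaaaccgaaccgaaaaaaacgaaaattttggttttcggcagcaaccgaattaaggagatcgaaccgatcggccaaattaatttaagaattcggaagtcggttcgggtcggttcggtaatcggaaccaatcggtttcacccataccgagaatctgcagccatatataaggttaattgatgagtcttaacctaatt
AT1G27565: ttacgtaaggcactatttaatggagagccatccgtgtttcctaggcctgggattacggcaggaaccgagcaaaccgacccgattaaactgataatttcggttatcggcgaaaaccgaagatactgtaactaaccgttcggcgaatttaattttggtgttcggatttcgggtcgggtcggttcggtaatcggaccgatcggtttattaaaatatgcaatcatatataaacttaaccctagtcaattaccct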

How the data were processed

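Total RNA of inflorescence meristems was made into 9 RNA-seq libraries, 3 per genotype, and groups come from the genotype labels. Reads were trimmed with Trimmomatic 0.39, aligned with HISAT2 2.2.1 to TAIR10 and counted with featureCounts 2.0.6, per the submitters' processing notes. Deposited by the authors were a table of raw counts and a table of TPM values, in which 8616 missing cells were read as 0. The tool that gave the TPM is not given in the sources used here. Genes were named and placed by locus tag in RefSeq TAIR10.1.

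Counts of all 9 libraries were fitted by genotype in edgeR 4.0.16 (R 4.3.3) with its filter on low counts (3089 genes removed), TMM factors and the quasi-likelihood test. On simulated data the fit called 90 of 100 genes changed by 1 and 100 of 100 changed by 2 on the log2 scale. The fit also called 20 unchanged genes among 22497 tested. The changed genes were drawn only from those with a col-0 mean of about 1 CPM or more, so genes of lower level were not covered. Simulated csld5 libraries were given the col-0 levels, unlike the real ones. Fold changes are complemented over col-0, and p-values were adjusted over all 22671 genes at a threshold of 0.05. SE is the log2 fold change over the root of F. Alternatives used DESeq2 1.42.0, limma 3.58.1 on log2(TPM + 1) or log2(TPM + 0.1), other scalings and filters, a replicate block, a correction for GC content and gene length with mgcv 1.9.3, and each library left out.

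The members and the 44 gene lists were chosen with earlier results of these data known. Named genes are CSLD5, its family, ATML1 and 3 meristem regulators, the 12 called nuclear genes that rose most and the 12 that fell most (no overlap of libraries, average log2 CPM of 1 or more), the 6 smallest p, and in each list the called members with the smallest p or, with fewer than 2 calls, the members with the highest CPM. Others are said to be chosen later. Same-numbered libraries did not deviate together (correlations of -0.02 to 0.0913), so the numbers were not taken as pairs. Copies of 116 named genes were searched with blastn 2.17.0 at 95% identity over 80% of the length, and 1 gene had one.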

Additional observations from a re-analysis of the deposited data

How the results depend on the processing

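CSLD5 kept its direction and its call under all 22 alternatives, with a log2 fold change of 2.77 to 2.90, and the chromosome 1 segment kept 21 to 24 falls. Of the 346 calls (215 higher, 131 lower), all kept their direction where tested, except 1 in each fit on TPM. The DESeq2 Wald test called 670 (436 higher, 234 lower, 60 list members). The fits on log2(TPM + 1) and log2(TPM + 0.1) with a filter of 1 TPM called 211 and 217, of which 117 and 129 were higher. On log2(TPM + 1) with no filter the count was 137, with 60 higher, 77 lower and 9 list members. The correction for GC content and length gave 218 lower and 40 list members, and with the replicate block added 224 lower and 40 list members. A log2 fold change of at least 1 left 199, with 140 higher, 59 lower and 12 list members. The replicate block alone called 368 genes, 315 of them shared with the 346. Leaving out 1 library gave 139 to 461 genes, 70 to 299 higher, 65 to 162 lower and 10 to 44 list members. Of the 132 named called genes, 54 stayed called under all 22 alternatives. Of the 13 named genes not called, CSLD1 and PDF1 passed the threshold in 3 and 1 alternatives. Signs turned in others of them: ATML1 had log2 fold changes of -0.0668 on log2(TPM + 1) with and without the filter and -0.0682 on log2(TPM + 0.1). With 1 library left out, the lowest and highest values were -0.0388 and 0.0610 for ATML1, -0.000601 and 0.0689 for CSLD3, -0.0166 and 0.281 for WUS, -0.0778 and 0.00406 for CSLD2 and -0.0842 and 0.0199 for CESA1. The cause was not tested.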

Other observations

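Genes outside the groups described so far also separated the genotypes, chosen after their values were seen. ARP9, an actin-related protein, had 53.98, 53.76 and 50.42 CPM in complemented libraries, 49.47, 47.07 and 50.47 CPM in csld5 libraries and 30.03, 33.29 and 29.85 CPM in col-0 libraries, a log2 fold change of 0.76 ± 0.06 (edgeR adjusted p 9.9e-06). HEI10, a protein of meiotic crossovers, had 8.386, 10.36 and 9.398 CPM in complemented libraries, 8.213, 9.669 and 9.711 CPM in csld5 libraries and 4.35, 4.389 and 4.46 CPM in col-0 libraries, while the 18 meiosis genes of the list had 0 calls. AT5G09620, annotated in the Phox/Bem1p family, had 31.66, 34.08 and 35.32 CPM in complemented libraries, 53.98, 49 and 53.11 CPM in csld5 libraries and 78.93, 77.61 and 88.44 CPM in col-0 libraries. It was lowest in complemented libraries, with no overlap between genotypes.

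Several other lists, of metabolism and of other responses, had no call between complemented and col-0 meristems, where 1.53% of all genes were called. Among 33 nuclear photosynthesis genes, 21 jasmonate, 21 abscisic acid, 17 phosphate and iron, 15 endoplasmic reticulum stress, 14 flavonoid, 11 heat shock and 11 low oxygen genes none was called, nor among 25 genes of RNA silencing and DNA methylation, 21 tubulin and microtubule, 21 vascular, 13 fasciclin-like and 4 root genes. For 14 of the 33 photosynthesis genes all complemented libraries lay below the col-0 libraries, against 10.2% of all genes, and the list median was -0.08. With 1 library left out, up to 3 jasmonate genes were called as higher and up to 2 low oxygen genes as lower. TPS8, a trehalose phosphate synthase family gene, fell by 0.45 among 14 carbon starvation genes, and LHY, of the circadian clock, fell by 0.43 among 18. They missed the threshold in 8 and 13 of 22 alternatives, and 0.578% of all genes fell. Of the organelle genes, 1 of 82 from the chloroplast, ATCG01020, and 1 of 9 from the mitochondrion, ATMG01390, rose, by 0.40 and 0.54, with calls missed in 11 and 3 of 22 alternatives. The chloroplast share of 1.22% is near the 0.948% of all genes that rose. All 9 mitochondrial genes had log2 fold changes above 0, with a median of 0.54. For 5 of them all complemented libraries lay above the col-0 libraries, a placing found for 9.37% of all genes.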
